A study of Mus musculus with 8 samples.

Results

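The proteasome genes described here encode the subunits, assembly chaperones and activators of the proteasome, the protease that degrades ubiquitin-tagged proteins. They were taken by name from a list of 41 genes, each represented by the brightest of its probe sets that carry no other gene. Of the 41, 40 were measured, out of 18820 genes tested. Psma4 was left out, since the array annotation assigns its probe set to another gene as well. The tissue was white adipose tissue of male mice labelled C57BL/6, a mix of C57BL/6N and C57BL/6J, kept for 5 weeks on D12492, a high fat diet made by Research Diets. In the Sel1l-/- group, 4 mice carried floxed Sel1l and a Cre recombinase under the adiponectin promoter, used to direct deletion to adipocytes, so that the other cells of the tissue keep Sel1l by design. The WT group held 4 wildtype mice on the same diet, and the sources used here do not say whether they carried floxed alleles or Cre. Every array stands for 1 mouse, and age and fat depot are likewise not given.

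The proteasome has a barrel-shaped core particle, the 20S, made of stacked rings of alpha and beta subunits, with the proteolytic sites inside the beta rings. A cap, the 19S regulatory particle, binds the ends of the barrel, recognises ubiquitin chains, removes them, unfolds the substrate with a ring of ATPases and threads it into the core. Sel1l is the adapter of the Hrd1 ubiquitin ligase in the membrane of the endoplasmic reticulum (ER), and proteins that this complex sends back to the cytosol (ER-associated degradation) are destroyed by the proteasome. When proteasome activity falls short, the transcription factor NFE2L1 is known to raise the transcription of many subunit genes together, and interferon-gamma is known to induce the alternative catalytic subunits of the immunoproteasome.

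All values are log2 expression from the authors' RMA normalization, and differences are Sel1l-/- minus WT on that scale. Array medians were 6.10 to 6.14 in Sel1l-/- and 6.05 to 6.08 in WT mice over all probe sets, and all 40 proteasome genes lay above the median of each of the 8 arrays. Between arrays, correlations over all probe sets were 0.982 to 0.994. Sel1l itself, the check of the genotype labels, read 9.56, 9.78, 9.72 and 10.07 in Sel1l-/- mice, against 10.48, 10.57, 10.58 and 10.65 in WT mice (difference -0.79, standard error 0.10, limma adjusted p = 0.0109). The labels also carry a mouse code of a letter and a number. Sel1l-/- 1 and 2 share the letter F with WT 4, while Sel1l-/- 3 and 4 have G and WT 1 to 3 have E. The number is 5 for Sel1l-/- 3, WT 1 and WT 4, 7 for Sel1l-/- 1, Sel1l-/- 4 and WT 2, and 9 for Sel1l-/- 2 and WT 3. The difference of Sel1l was -0.98 when blocking on the letters of the mouse codes and -0.80 when blocking on their numbers, without a call (adjusted p = 0.151 and 0.0813), and the position of the probes relative to the deleted part is not given. The means of 9 adipocyte markers were 11.87 to 12.26 in Sel1l-/- and 12.20 to 12.42 in WT arrays, with none under the lower quartile of the arrays. None of these 9 was called and all had negative differences, Adipoq having the smallest p (difference -0.56, limma adjusted p = 0.0753, but 0.0204 when blocking on replicate number).

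No proteasome gene differed between Sel1l-/- and WT adipose tissue past the threshold. At a limma adjusted p under 0.05, 0 of the 40 genes were higher and 0 were lower, where 1.72% of all genes were called (1.04% higher and 0.685% lower). Genes at least as bright as Psmd9, the dimmest of the 40, numbered 8718, and 2.99% of them were called. Blocking on replicate number called 725 genes in place of 324, and again 0 of the 40. At an unadjusted p under 0.05, 5 of the 40 (12.5%) stood out, against 15.0% of all genes and 21.5% of the genes as bright. Of these 5, 4 had positive differences (Psmb6, Psmb5, Psmd13 and Psme4), against 7.15% of all genes, and 1 a negative one (Psmb1), against 7.85% of all genes. The arrays of the groups did not overlap for 2 of the 40 genes (5%), Psmb6 and Psmb1, against 10.3% of all genes and 15.8% of the genes as bright. In the 4 same-numbered pairs of mice the difference had 1 sign throughout for 14 of the 40 (35%), 6 higher and 8 lower, against 30.1% of all genes.

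The differences were small and went both ways. They ran from -0.25 (Psmb10) to 0.25 (Psmb5), with 17 positive and 23 negative and a median of -0.02, beside -0.0037 over all genes tested. The quartiles were -0.09 and 0.07 for the proteasome genes, against -0.10 and 0.09 for all genes. Centring the arrays on their medians over the genes tested moved every gene up by 0.0269, which put the median of the 40 at 0.0089 beside 0.0232 over all genes. The intervals bound the difference in RNA of the whole tissue, gene by gene and without adjustment for the number of genes. A change within adipocytes alone is not bounded by them. The 95% interval of the difference lay within 1.5-fold either way for 39 of the 40 genes (97.5%), against 84.4% of all genes, and the exception was Psmb10, whose interval reached 1.52-fold lower in Sel1l-/- mice. The highest bound was that of Psmb5, at 1.41-fold higher. The median spread within groups was 0.09 for the 40 genes (SD pooled over the 2 groups, log2 scale), against 0.13 for all genes.

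**Figure D1:**
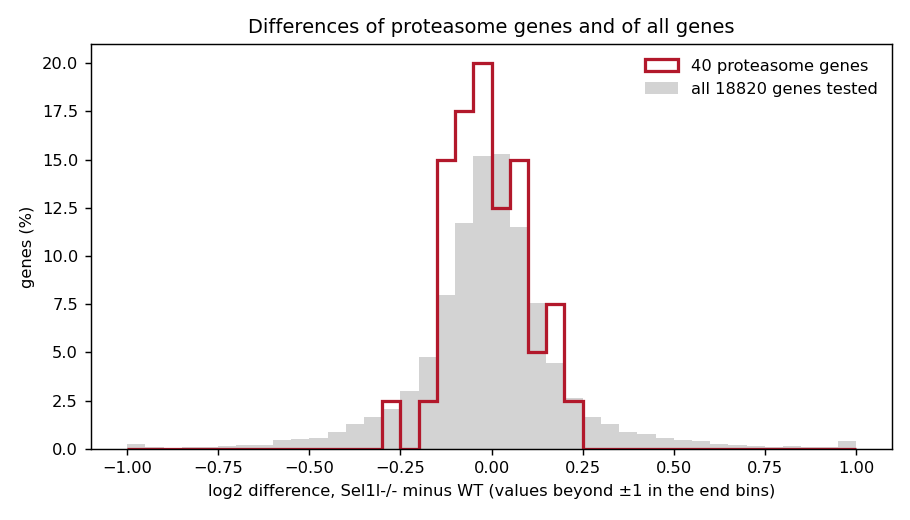
Share of genes (vertical axis, percent) by the log2 difference, Sel1l-/- minus WT (horizontal axis), for the 40 proteasome genes (red line) and all 18820 genes tested (grey). The red line ends in the bins that hold -0.25 and 0.25, while grey bars run on to both end bins, which collect all values beyond 1 in size.

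**Figure D2:**
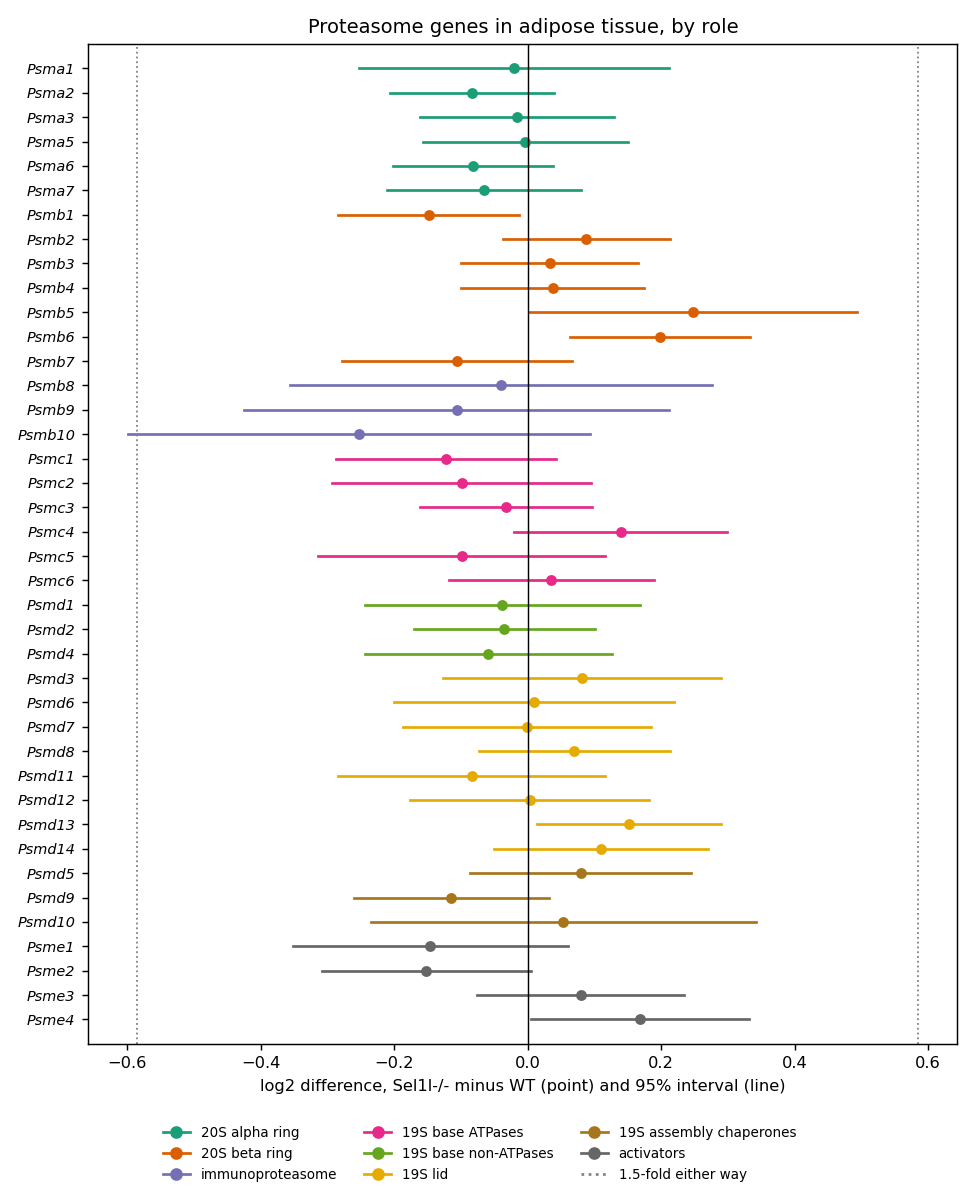
Log2 difference, Sel1l-/- minus WT (point), with its 95% interval from limma (line) for each of the 40 proteasome genes, coloured by role; dotted lines mark 1.5-fold either way. Only the line of Psmb10 crosses a dotted line, and points of most roles lie on both sides of 0.

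The catalytic beta subunits of the core had differences of both signs, none past the threshold. Psmb5, Psmb6 and Psmb7 carry the chymotrypsin-like, caspase-like and trypsin-like sites, and the other beta subunits of the ring are structural. Psmb6 read 10.57, 10.40, 10.41 and 10.44 in Sel1l-/- mice, against 10.31, 10.24, 10.21 and 10.27 in WT mice. All 4 Sel1l-/- arrays lay above all 4 WT arrays, but the difference of 0.20 (1.15-fold, 95% interval 0.06 to 0.33) had a limma adjusted p of 0.159, the smallest among the 40 genes. Psmb5 read 12.36, 12.10, 12.22 and 11.84 in Sel1l-/- mice, against 11.98, 11.83, 11.81 and 11.91 in WT mice. Its Sel1l-/- 4 array fell inside the WT range while the other Sel1l-/- arrays lay above it (difference 0.25, standard error 0.11, limma adjusted p = 0.329). Without Sel1l-/- 4 the adjusted p of Psmb5 was 0.0964, the lowest for any of the 40 genes under the alternatives tried. Psmb7 read 9.56, 9.46, 9.49 and 9.31 in Sel1l-/- mice, against 9.65, 9.50, 9.64 and 9.45 in WT mice, so the groups overlapped (difference -0.11, limma adjusted p = 0.579). Blocking on mouse letter turned the Psmb7 difference to 0.06. Within the mouse codes that held both genotypes, the difference of Psmb6 was 0.21 in letter F and 0.12, 0.26 and 0.20 in numbers 5, 7 and 9. That of Psmb5 was 0.32 in letter F and 0.28, 0.27 and 0.29 in the same numbers. For Psmb5, number 7 averages Sel1l-/- 1 (12.36) and Sel1l-/- 4 (11.84), set against WT 2 alone (11.83). Each of these codes held only 1 or 2 mice per genotype, and the letter and the numbers share mice.

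Psmb1 went the other way. It read 9.82, 9.82, 9.81 and 9.66 in Sel1l-/- mice, against 9.96, 9.94, 9.95 and 9.86 in WT mice, without overlap (difference -0.15, standard error 0.06, limma adjusted p = 0.288). Within letter F its difference was -0.04, and within numbers 5, 7 and 9 it was -0.10, -0.20 and -0.13. A dimmer probe set of Psmb1, not used in the fit, gave -0.08. A dimmer probe set of Psmb3 gave 0.0079, and the positions of the probes on the genome were not used here, so signal from processed copies of a gene cannot be told apart. The structural subunits Psmb2, Psmb3 and Psmb4 had differences of 0.09, 0.03 and 0.04 (limma adjusted p of 0.518 or more). Of the 7 genes of the beta ring, 5 had positive and 2 negative differences, with a median of 0.04.

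The alpha ring, which gates the entrance to the core, was measured through 6 genes, all with negative differences and a median of -0.04. Psma6 read 10.54, 10.52, 10.59 and 10.55 in Sel1l-/- mice, against 10.67, 10.68, 10.56 and 10.62 in WT mice. The Sel1l-/- 3 value fell between WT 3 and WT 4, so the groups overlapped (difference -0.08, limma adjusted p = 0.529). Psma2 read 8.83, 8.78, 8.84 and 8.77 in Sel1l-/- mice, against 8.97, 8.87, 8.83 and 8.89 in WT mice (difference -0.08, limma adjusted p = 0.536). Only WT 3 lay among the Sel1l-/- values of Psma2. The differences of Psma7, Psma1, Psma3 and Psma5 were -0.07, -0.02, -0.02 and -0.0035, and those of Psma1, Psma3 and Psma5 became positive (0.0064 to 0.02) after centring of the arrays. The 2 dimmer probe sets of Psma3 gave -0.0075 and -0.0017. The probe set that the annotation gives to Psma4 together with AY074887 read 9.73 ± 0.03 in Sel1l-/- and 9.79 ± 0.05 in WT mice (SD, n = 4 each) and was not tested.

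Promoter windows are printed for the 4 genes with the smallest unadjusted p among those with positive differences, to show whether the site known for NFE2L1 is there. Each window runs from 250 bases before to 50 bases after the annotated start in RefSeq (GRCm38.p6), printed 5′ to 3′ on the strand of the gene. They lie at chr11:70525107-70525406 (plus strand, Psmb6), chr14:54617946-54618245 (minus strand, Psmb5), chr7:140882144-140882443 (plus strand, Psmd13) and chr11:30771525-30771824 (plus strand, Psme4). Capitals mark the core of the antioxidant response element, to which NFE2L1 binds with small MAF partners (TGACNNNGC, on either strand).
Psmb6: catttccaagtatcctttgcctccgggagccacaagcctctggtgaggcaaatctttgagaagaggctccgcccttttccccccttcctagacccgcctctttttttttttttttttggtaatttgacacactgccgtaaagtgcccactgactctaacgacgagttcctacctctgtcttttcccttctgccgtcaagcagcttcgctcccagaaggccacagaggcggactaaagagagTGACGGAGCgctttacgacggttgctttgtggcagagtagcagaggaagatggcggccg
Psmb5: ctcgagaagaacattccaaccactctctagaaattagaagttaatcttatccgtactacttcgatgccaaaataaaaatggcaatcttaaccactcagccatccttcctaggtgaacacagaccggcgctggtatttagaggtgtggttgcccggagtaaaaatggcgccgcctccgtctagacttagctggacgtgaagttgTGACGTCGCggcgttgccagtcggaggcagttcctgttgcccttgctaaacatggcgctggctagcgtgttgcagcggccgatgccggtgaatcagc
Psmd13: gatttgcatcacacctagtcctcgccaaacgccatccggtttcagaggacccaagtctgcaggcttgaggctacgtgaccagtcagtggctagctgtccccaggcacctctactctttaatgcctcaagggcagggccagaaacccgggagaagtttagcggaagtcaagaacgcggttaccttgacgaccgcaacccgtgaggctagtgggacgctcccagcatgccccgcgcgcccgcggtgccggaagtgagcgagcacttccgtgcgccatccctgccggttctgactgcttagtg
Psme4: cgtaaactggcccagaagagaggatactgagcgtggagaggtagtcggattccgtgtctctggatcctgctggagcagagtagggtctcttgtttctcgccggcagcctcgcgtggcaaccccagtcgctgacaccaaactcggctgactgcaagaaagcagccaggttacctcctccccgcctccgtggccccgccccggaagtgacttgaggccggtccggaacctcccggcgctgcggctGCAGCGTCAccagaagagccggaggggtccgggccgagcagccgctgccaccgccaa

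Windows were found for 34 of the 40 genes and for 14749 of all genes tested. The antioxidant response element core was present in 6 of the 34 (17.6%), namely Psmb5, Psmb6, Psmc6, Psmd12, Psmd9 and Psme4, against 15.4% of all genes. It begins 9 bases before the start of Psmb6, 47 bases before that of Psmb5 and 7 bases before that of Psme4, where it lies on the opposite strand. No match to it stood in the window of Psmd13. The other genes with the core, Psmc6, Psmd12 and Psmd9, had differences of 0.04, 0.0028 and -0.11. A match is a stretch of letters and not evidence of binding.

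The 3 immunoproteasome subunits replace the catalytic subunits of the standard core: Psmb9 takes the place of Psmb6, Psmb10 that of Psmb7 and Psmb8 that of Psmb5. They are abundant in immune cells and shape the peptides offered on MHC class I. None passed the threshold. Their SDs pooled over the 2 groups, 0.22 to 0.25, were the largest of all proteasome genes. In single groups the order differed, with an SD of 0.13 for Psmb10 in Sel1l-/- mice and 0.28 for Psmd10 in WT mice. Psmb10 read 8.79, 9.06, 9.03 and 9.03 in Sel1l-/- mice, against 8.80, 9.42, 9.18 and 9.53 in WT mice. WT 1 sat with Sel1l-/- 1 at the bottom and the other 3 WT arrays lay above all Sel1l-/- arrays (difference -0.25, standard error 0.15, limma adjusted p = 0.502). Psmb9 read 8.03, 8.33, 8.58 and 8.10 in Sel1l-/- mice, against 8.09, 8.49, 8.53 and 8.35 in WT mice (difference -0.11, limma adjusted p = 0.786). Psmb8 read 7.72, 8.21, 8.37 and 8.22 in Sel1l-/- mice, against 8.04, 8.23, 8.06 and 8.33 in WT mice (difference -0.04, limma adjusted p = 0.929). The difference of Psmb8 was 0.10 without Sel1l-/- 1 and 0.01 without WT 4. Leaving out 1 array moved that of Psmb9 between -0.21 (without Sel1l-/- 3) and -0.03 (without Sel1l-/- 1), and that of Psmb10 between -0.40 (without WT 1) and -0.15 (without WT 4). Within letter F the differences of Psmb8, Psmb9 and Psmb10 were -0.37, -0.17 and -0.60. Within numbers 5, 7 and 9 they were 0.18, -0.26 and 0.14 for Psmb8, and 0.36, -0.42 and -0.20 for Psmb9. For Psmb10 they were -0.13, -0.51 and -0.12 in these numbers. In this bulk tissue, fewer cells of a type and less RNA per cell cannot be told apart.

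Set against its standard counterpart on the same array, each immunoproteasome subunit had a lower mean ratio in Sel1l-/- than in WT mice, with overlapping groups. The log2 ratio of Psmb9 to Psmb6 was -2.54, -2.08, -1.84 and -2.34 in Sel1l-/- mice, against -2.22, -1.75, -1.68 and -1.92 in WT mice, a difference of -0.30. For Psmb8 over Psmb5 the ratios were -4.64, -3.90, -3.85 and -3.62 in Sel1l-/- mice, against -3.93, -3.60, -3.75 and -3.58 in WT mice, a difference of -0.29. For Psmb10 over Psmb7 they were -0.76, -0.40, -0.45 and -0.29 in Sel1l-/- mice, against -0.85, -0.08, -0.46 and 0.07 in WT mice, a difference of -0.15. Each ratio combines 2 genes. The differences were -0.11 for Psmb9 and 0.20 for Psmb6, and -0.04 for Psmb8 and 0.25 for Psmb5. For Psmb10 and Psmb7 they were -0.25 and -0.11. The lowest ratio of Psmb8 to Psmb5 was that of Sel1l-/- 1 (-4.64), and the other Sel1l-/- ratios lay within the WT range. The level of a ratio depends on the probes and says nothing of relative amounts, and these ratios were not tested.

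**Figure D3:**
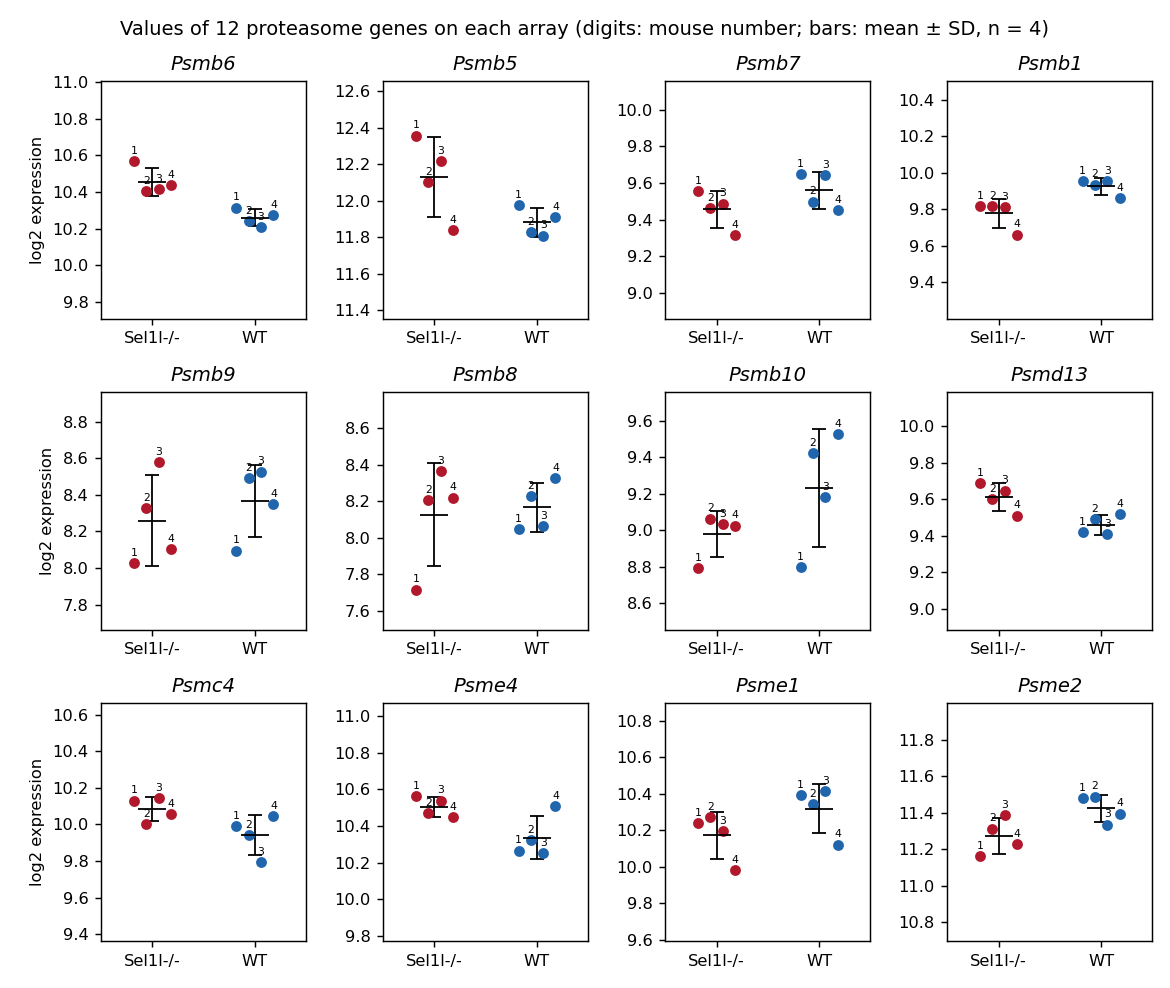
Log2 expression (vertical axes, each spanning 1.3 log2 units) of 12 proteasome genes in 4 Sel1l-/- mice (red, left) and 4 WT mice (blue, right); points are arrays with the mouse number, bars the mean ± SD. Psmb6 and Psmb1 are the genes whose groups do not overlap, and the SD pooled over both groups is largest for Psmb8, Psmb9 and Psmb10.

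The base of the cap is a ring of 6 ATPases, Psmc1 to Psmc6, that unfolds substrates and opens the gate of the core. Of these, 2 had positive and 4 negative differences (median -0.07), and none passed the threshold. Psmc4 read 10.13, 10.00, 10.14 and 10.05 in Sel1l-/- mice, against 9.99, 9.94, 9.79 and 10.05 in WT mice, and WT 4 lay within the Sel1l-/- range (difference 0.14, standard error 0.07, limma adjusted p = 0.411). Psmc1 read 9.10, 8.92, 9.09 and 8.998 in Sel1l-/- mice, against 9.25, 9.05, 9.22 and 9.07 in WT mice (difference -0.12, limma adjusted p = 0.492). Its groups overlapped, although each same-numbered pair was lower in the Sel1l-/- mouse, and a second probe set of Psmc1 gave -0.05. Psmc2 and Psmc5 had differences of -0.10 each, Psmc3 one of -0.03 and Psmc6 one of 0.04.

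The scaffolds Psmd1 and Psmd2 and the ubiquitin receptor Psmd4 complete the base. Psmd2 read 11.39, 11.28, 11.36 and 11.30 in Sel1l-/- mice, against 11.48, 11.34, 11.33 and 11.34 in WT mice (difference -0.04, limma adjusted p = 0.840), and a dimmer probe set of Psmd2 gave -0.07. Psmd4 read 9.33, 9.22, 9.30 and 9.14 in Sel1l-/- mice, against 9.43, 9.34, 9.34 and 9.11 in WT mice (difference -0.06, limma adjusted p = 0.797). Psmd1 had a difference of -0.04, and in these genes the groups overlapped.

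The lid removes ubiquitin chains through the metalloprotease Psmd14, held in place by the scaffold subunits around it. Of its 8 genes, 6 had positive and 2 negative differences, with a median of 0.04. Psmd13 read 9.69, 9.60, 9.65 and 9.51 in Sel1l-/- mice, against 9.42, 9.49, 9.41 and 9.52 in WT mice. WT 4 lay just above Sel1l-/- 4, and the other WT arrays below all Sel1l-/- arrays (difference 0.15, standard error 0.06, limma adjusted p = 0.285). Psmd14 read 11.21, 11.10, 11.09 and 10.96 in Sel1l-/- mice, against 11.06, 11.01, 10.88 and 10.96 in WT mice, with overlap (difference 0.11, limma adjusted p = 0.530). Psmd3 and Psmd8 had differences of 0.08 and 0.07, Psmd6, Psmd12 and Psmd7 lay within 0.01 of 0, and Psmd11 had one of -0.08.

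Psmd5, Psmd9 and Psmd10 are not part of the finished cap but chaperones that help to assemble its base. Psmd9 read 7.34, 7.34, 7.24 and 7.24 in Sel1l-/- mice, against 7.41, 7.38, 7.31 and 7.53 in WT mice (difference -0.11, limma adjusted p = 0.468). Psmd5 read 9.52, 9.30, 9.32 and 9.30 in Sel1l-/- mice, against 9.38, 9.25, 9.31 and 9.19 in WT mice (difference 0.08, limma adjusted p = 0.676). In both, the groups overlapped. Psmd10 averaged 9.30 ± 0.05 in Sel1l-/- and 9.25 ± 0.28 in WT mice (SD, n = 4 each), with a difference of 0.05 whose sign turned to -0.34 when blocking on mouse letter.

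The activators bind the core in place of the cap. Psme1 and Psme2 form the interferon-inducible activator PA28 alpha-beta, Psme3 is its nuclear relative and Psme4 encodes the large activator PA200. Psme1 read 10.24, 10.27, 10.19 and 9.98 in Sel1l-/- mice, against 10.39, 10.34, 10.42 and 10.12 in WT mice (difference -0.15, standard error 0.09, limma adjusted p = 0.517). Psme2 read 11.16, 11.31, 11.39 and 11.23 in Sel1l-/- mice, against 11.48, 11.49, 11.34 and 11.39 in WT mice (difference -0.15, standard error 0.07, limma adjusted p = 0.349). The groups overlapped for both partners. Within letter F the difference of Psme1 was 0.13 and that of Psme2 -0.16, and a probe set shared by Psme2 and Psme2b, not used in the fit, gave -0.10. Psme4 read 10.56, 10.47, 10.54 and 10.45 in Sel1l-/- mice, against 10.27, 10.32, 10.25 and 10.51 in WT mice. WT 4 lay among the Sel1l-/- values of Psme4 and the other WT arrays below them (difference 0.17, standard error 0.07, limma adjusted p = 0.319), and within letter F, to which WT 4 belongs, the difference was 0.01. Psme3 had a difference of 0.08.

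The arrays of a group differed among themselves in a way that many proteasome genes shared. Among the Sel1l-/- arrays, Sel1l-/- 1 was the highest for 26 of the 40 genes and Sel1l-/- 4 the lowest for 24. Among the WT arrays, WT 1 was the highest for 23 and WT 3 the lowest for 20. Of the 37 genes outside the immunoproteasome, 34 lay above their group mean on Sel1l-/- 1 and 32 on WT 1, by a median of 0.07 and 0.08. The mean of the 3 immunoproteasome genes lay 0.28 below the group mean on each of these arrays. Sel1l-/- 1 and WT 1 also had the lowest means of 12 macrophage markers in their groups, 10.29 within a range of 10.29 to 11.06 in Sel1l-/- mice and 10.12 within 10.12 to 10.67 in WT mice. WT 3 was almost as low in these markers (10.17), but its immunoproteasome mean deviated from the group mean by only 0.0028. Sel1l-/- 4 had the highest macrophage mean (11.06) and an immunoproteasome deviation of -0.0058. Whether the 2 means go together was not tested. None of the macrophage markers was below the lower quartile of the arrays. In a fit with the mean of these markers as a covariate, 0 of the 40 genes were called. That fit called 555 genes in all, against 324 without the covariate. Of the 40, 6 had an unadjusted p under 0.05 with the covariate, against 5 without it. The share of all genes at that unadjusted p with the covariate is not given here, so the 6 cannot be set against it.

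**Figure D4:**
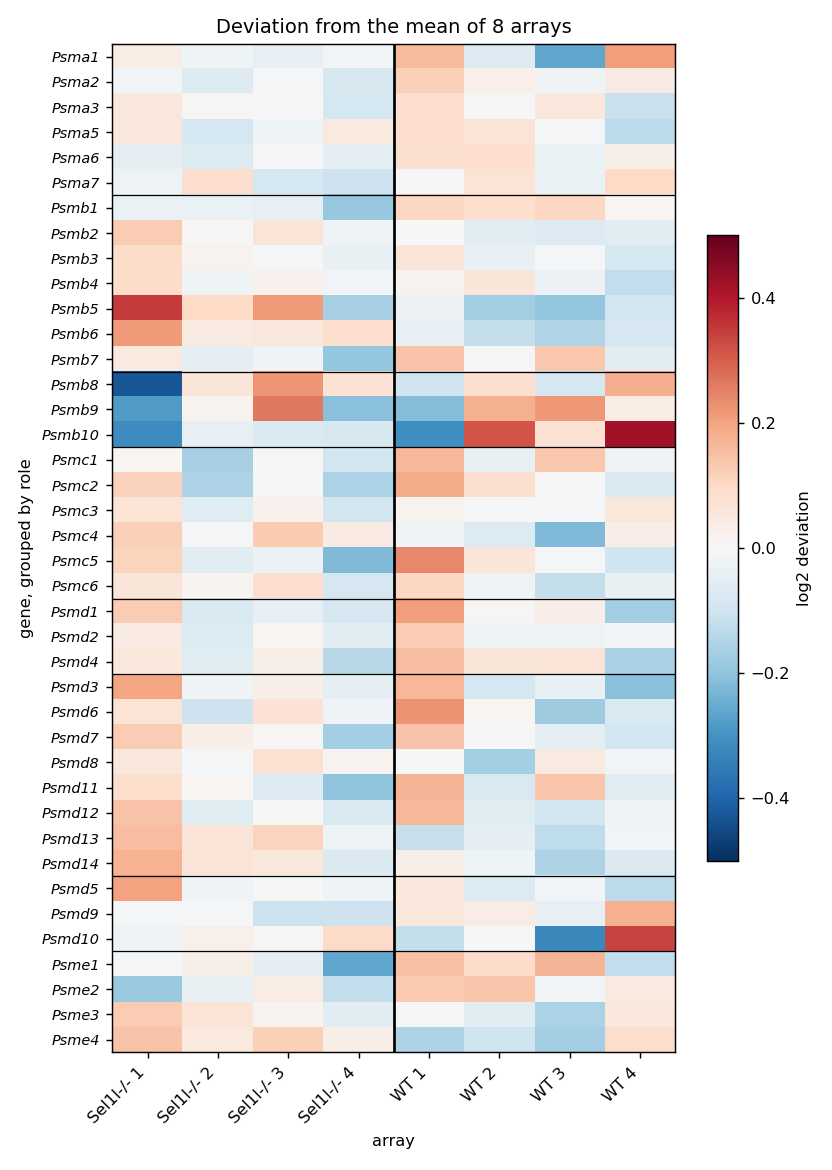
Deviation of each array from the mean of all 8 arrays (colour, log2 scale from -0.5 in blue to 0.5 in red) for the 40 proteasome genes in rows, grouped by role, with the Sel1l-/- arrays left and the WT arrays right of the black line. Most rows are red on Sel1l-/- 1 and WT 1, while Psmb8, Psmb9 and Psmb10 are blue on both. Some other rows are also blue on 1 or both of these arrays, such as Psmd10, Psme2 (Sel1l-/- 1) and Psme4 (WT 1).

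Markers of other cells and genes of the interferon-gamma pathway are given beside the immunoproteasome, since immune cells and interferon-gamma are its known sources and inducers. The 9 measured lymphocyte markers had means of 6.26 to 6.94 in Sel1l-/- and 6.56 to 7.17 in WT arrays, 6 of them with negative differences. One of them, Cd2, an adhesion receptor of T and NK cells, was lower in Sel1l-/- mice (difference -0.65, limma adjusted p = 0.0456), with a call lost on leaving out any 1 array except Sel1l-/- 2. The Cd2 difference was -0.80 when blocking on mouse letter, -0.62 when blocking on mouse number and -0.57 with array weights, also without a call (adjusted p = 0.325, 0.158 and 0.0572). Of 12 macrophage markers, 11 had positive differences and 0 were called, and the gene of smallest p was Mertk at -0.35 (limma adjusted p = 0.170, but 0.0469 without WT 4). None of 11 genes of interferon-gamma inducible antigen processing was called, 3 with positive and 8 with negative differences (median -0.10). Irf1, the transcription factor that carries interferon-gamma signals to the immunoproteasome genes, read 8.85, 8.88, 8.94 and 8.78 in Sel1l-/- mice, against 9.24, 9.13, 9.45 and 8.97 in WT mice. The groups did not overlap, and the limma adjusted p was 0.157 (difference -0.34). The difference of Irf1 was -0.26 with the mean of all its probe sets (limma adjusted p = 0.375) and -0.10 when blocking on mouse letter. All 8 endothelial markers had negative differences and a limma unadjusted p under 0.05, against 15.0% of all genes at that p. Their means were 9.71 to 10.06 in Sel1l-/- and 10.20 to 10.44 in WT arrays, without overlap. Of the 8, 1 was called, the adhesion molecule Pecam1 (difference -0.39, limma adjusted p = 0.0290). The Pecam1 call was lost on leaving out any 1 of the 8 arrays (adjusted p of 0.0503 to 0.102, difference -0.42 to -0.36) and when blocking on mouse letter or number (0.399 and 0.153, difference -0.38 in both). Means of the fibroblast, mesothelial and muscle markers differed by -0.09, -0.42 and -0.06, with no gene called. The genes of smallest p in these lists were Cd34 (-0.27, limma adjusted p = 0.162), Wt1 (-0.44, 0.108) and Acta1 (-0.32, 0.390). Wt1 was called when blocking on replicate number (0.0382), and Cd34 without WT 4 (0.0448). The part of these cells in the values of the proteasome genes was not tested.

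Genes that work with the proteasome were mostly not called. Of 15 measured genes for other subunits, assembly factors and proteins bound to the proteasome, 0 were called in either direction (median 0.02), and the one of smallest p was Txnl1, a thioredoxin-like protein of the cap, at 0.23 (limma adjusted p = 0.248). Of 7 genes listed for the NFE2L1 route, with Nfe2l2 and Keap1 counted among them, 0 were called. Their differences ran from -0.04 to 0.29, 5 positive and 2 negative, with a median of 0.20. Nfe2l1 itself read 11.45, 11.45, 11.49 and 11.12 in Sel1l-/- mice, against 11.05, 11.06, 11.13 and 11.16 in WT mice. Sel1l-/- 4 lay among the WT values (difference 0.28, standard error 0.09, limma adjusted p = 0.186), and over the 17 alternatives the adjusted p ran from 0.0293 to 0.613. Nfe2l1 was called in 2 of them, without Sel1l-/- 4 and with array weights. Uba6, a ubiquitin-activating enzyme, had a difference of 0.24 (limma adjusted p = 0.180) and was the only gene measured of the list on ubiquitin supply.

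Among 13 genes that carry ubiquitinated proteins to the proteasome, 1 rose and 0 fell, with a median difference of 0.04. The gene that rose was Sqstm1, which encodes p62, an adapter that delivers ubiquitinated cargo to autophagy and also binds the proteasome. It read 12.38, 12.27, 12.28 and 12.27 in Sel1l-/- mice, against 11.81, 11.80, 11.76 and 11.95 in WT mice, without overlap. That made 1.38-fold (difference 0.47, standard error 0.06, limma adjusted p = 0.0107), and the difference was 0.37 when blocking on mouse letter and 0.48 when blocking on mouse number, without a call (adjusted p = 0.281 and 0.0790).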

How the data were processed

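RNA of 8 mice was measured on 1-colour arrays, and the deposited values are log2 expression per probe set. Per the submitters' processing notes the authors used RMA, a method that subtracts background, makes the arrays' distributions equal and combines the probes of a set; its version and any filter are not stated, and the scale was inferred from the range of the values. Because RMA equalizes the arrays, a shift of most transcripts would not show, and 4 arrays per group limit the precision. Of 35556 probe sets, 21218 carry exactly 1 gene in the platform annotation, 1881 several and 12457 none; gene symbols were checked against RefSeq (GRCm38.p6), and none changed. Each gene was read from its brightest single-gene probe set, which gave 18820 genes. No further scaling and no filter on dim genes was applied.

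The genotypes were compared by a two-sided limma test (limma 3.58.1, R 4.3.3, lmFit and eBayes, 2.60 prior degrees of freedom). P-values were adjusted by Benjamini-Hochberg across the 18820 genes, with 0.05 as the threshold; the fit was tested on simulated data. Intervals are 95% intervals from that fit. Summaries and figures were made in Python 3.11.15 (matplotlib 3.10.9, pandas 2.3.3). The proteasome genes, the other lists, the naming rule (Sel1l; all 40 genes with a difference; in full those called, the 2 of smallest p in each role, the immunoproteasome subunits with their counterparts, Psme1 and Psme2; of each other list up to 4 called genes, else the 1 of smallest p) and the promoter windows were chosen with earlier results of these data known.

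Sample titles give replicate numbers 1 to 4 per group. Subtracting group means left correlations of 0.518, 0.107, 0.363 and 0.524 between mice sharing a number, against -0.489 to 0.328 between the others. These values met the criterion set for pairing (each above 0.1), but the reported tests are unpaired, and the block by replicate number is an alternative. Blocks by letter and by number of the mouse code in the labels, whose meaning is not stated, array centring, array weights, a macrophage covariate, probe set and moderation choices and leaving out each array were tried as alternatives. Promoters are reported for 1 motif; other motifs searched are not reported here.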

Additional observations from a re-analysis of the deposited data

Results flagged for a closer look

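Among the 40 proteasome genes and 13 other named genes, 106 groups of 4 arrays were examined for 1 array far from the other 3, and chance alone flags about 1 in 20 such groups. Psmb1 read 9.66 on Sel1l-/- 4, against 9.81 to 9.82 on the other Sel1l-/- arrays. Psmb10 read 8.79 on Sel1l-/- 1, against 9.03 to 9.06 on the other Sel1l-/- arrays. Psmd5 read 9.52 on Sel1l-/- 1, against 9.30 to 9.32 on the others of its group. Nfe2l1 read 11.12 on Sel1l-/- 4, against 11.45 to 11.49 on the others, and Sqstm1 read 12.38 on Sel1l-/- 1, against 12.27 to 12.28. In WT mice, WT 1 stood apart for Psmb2 (11.38, against 11.32 to 11.33) and for Psmd2 (11.48, against 11.33 to 11.34). The arrays concerned were Sel1l-/- 1 in 3 cases, Sel1l-/- 4 in 2 and WT 1 in 2.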

How the results depend on the processing

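None of the 40 proteasome genes was called under any of the 17 alternatives. The replicate block, which treats same-numbered mice as pairs, called 725 genes in all, against 324 without it, and called 0 of the 40; among other named genes it added the calls of Adipoq (adjusted p = 0.0204) and Wt1 (0.0382). The count over all genes was 20 when blocking on mouse letter, 11 when blocking on mouse number, 566 with array weights and 555 with the macrophage covariate, and 100 (without WT 1) to 336 (without Sel1l-/- 4) when arrays were left out in turn. The median difference of the 40 was 0.06 with the letter block. Signs turned in 55 of 680 values over 16 genes. Centring adds 0.0269 to every gene, which by construction turned Psma1 (0.0064), Psma3 (0.01), Psma5 (0.02) and Psmd7 (0.03). For the other settings the cause was not tested. With the letter block they were Psma3 (0.14), Psma5 (0.11), Psmb7 (0.06), Psmc2 (0.05), Psmc5 (0.13), Psmd1 (0.20), Psmd2 (0.00073), Psmd4 (0.16), Psmd7 (0.18), Psmd11 (0.11), Psmd10 (-0.34) and Psme1 (0.13). With the number block they were Psma1 (0.01), Psmb8 (0.009) and Psmd7 (0.0074), and with array weights Psmb8 (0.01), Psmd6 (-0.02), Psmd7 (0.0082) and Psmd12 (-0.0027). With the macrophage covariate they were Psma3 (0.04), Psma5 (0.01), Psmd1 (0.04), Psmd4 (0.01), Psmd7 (0.07), Psmd11 (0.01) and Psmd10 (-0.05). Leaving out 1 array gave Psma1 -0.11 to 0.05, Psma3 -0.06 to 0.01, Psma5 -0.05 to 0.03, Psmb8 -0.12 to 0.10, Psmd1 -0.10 to 0.03, Psmd2 -0.05 to 0.0012, Psmd6 -0.05 to 0.09, Psmd7 -0.04 to 0.06, Psmd10 -0.05 to 0.18 and Psmd12 -0.04 to 0.06. Letter F alone holds both genotypes, so the letter block rests on 3 mice. With 4 arrays per group small differences can be missed, and the interval of Psmb6 (0.06 to 0.33) excluded 0 without a call. A p that misses the threshold does not show equal expression.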
